A study of Saccharomyces cerevisiae and Saccharomyces paradoxus and Saccharomyces cerevisiae x Saccharomyces paradoxus with 12 samples.

Results

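The cytochrome bc1 complex of the budding yeast mitochondrion was followed as the set of its nuclear genes COR1, QCR2, QCR6, QCR7, QCR8, QCR9, QCR10, RIP1 and CYT1. The rule for membership is the gene ID and uses no measured value, although the complex was picked with earlier results of these data known. Of the 9 genes, 8 have a row among the 5226 genes of the count table. QCR10 was not analysed here. Abundance of mRNA was read by RNA-seq. Ribosome occupancy was read by Ribo-seq, which sequences the stretches of mRNA that ribosomes cover. The strains were the diploid F1 hybrid (GSY88) of Saccharomyces cerevisiae and S. paradoxus, diploid S. cerevisiae (GSY83) and diploid S. paradoxus (GSY82). By the labels, each strain had 2 libraries per assay, 12 in all. In the hybrid libraries the reads were counted for each species' allele, which gave 16 columns of counts. All strains grew in the glucose medium YEP+D at 30 °C and all, parents and hybrid alike, received cycloheximide, which stalls ribosomes on mRNA, for 5 min before extraction. Each species was represented by 1 strain. The labels do not say whether replicates came from separate cultures, so p-values measure only the spread between these libraries.

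The complex, also called complex III, sits in the inner mitochondrial membrane. It takes electrons from ubiquinol, hands them to cytochrome c and moves protons across the membrane. Cytochrome c1 (CYT1) and the Rieske iron-sulfur protein (RIP1) carry the electrons together with cytochrome b, which mitochondrial DNA encodes and which was not analysed here. The core proteins COR1 and QCR2, relatives of the mitochondrial processing peptidase, face the matrix, and the small subunits QCR6 to QCR10 hold no redox group. In S. cerevisiae transcription of these genes is held down by glucose and driven by the Hap2/3/4/5 activator, and CYT1 is also a target of the heme-responsive activator Hap1.

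The 8 genes lie on 8 chromosomes, here in S. cerevisiae R64 (sacCer3) positions. The catalytic genes are CYT1 (YOR065W) on chromosome XV from 447439 to 448368, plus strand, and RIP1 (YEL024W) on chromosome V from 107260 to 107907, plus strand. COR1 (YBL045C) is on chromosome II from 134143 to 135516, minus strand, and QCR2 (YPR191W) on chromosome XVI from 919381 to 920487, plus strand. Of the small subunits, QCR6 (YFR033C) is on chromosome VI from 224326 to 224769, minus strand. QCR7 (YDR529C) is on chromosome IV from 1496165 to 1496548, minus strand. QCR8 (YJL166W) is on chromosome X from 106434 to 106718, plus strand. QCR9 (YGR183C) is on chromosome VII from 859063 to 859476, minus strand. No other gene of the coordinate tables overlaps any of the 8. QCR9 alone has an intron, and it alone differs in coding length between the species, with 67 codons in S. cerevisiae and 69 in S. paradoxus. The other 7 span 95 codons (QCR8) to 458 codons (COR1).

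Columns held 6116133 to 8910405 counts. Replicates correlated across genes by 0.950 to 0.993. Levels below are counts per 1000000 counts of a column (CPM), with column totals scaled by edgeR's TMM method, and a log2 ratio is S. cerevisiae over S. paradoxus unless another pair is named. Before scaling, the 8 genes took 0.0867% and 0.0952% of S. cerevisiae RNA-seq counts, against 0.146% and 0.155% in S. paradoxus. The headings of the parental columns carry the word "Mix", which the sources used here do not explain. Same-numbered columns of the parents had near-equal totals, such as 8910405 counts in S. cerevisiae and 8904431 in S. paradoxus for Ribo-seq replicate 1, as had the allele columns of each hybrid library. Whether such parental columns come from a shared library is not stated. If they do, the parental comparisons are paired, and their p-values below, from a fit without pairs, do not measure the spread between pairs.

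In the parents, the mRNA of every bc1 gene was lower in S. cerevisiae than in S. paradoxus, and for 7 of the 8 the difference passed the quasi-likelihood test of edgeR, adjusted by Benjamini-Hochberg over all 5158 genes tested. Of all genes tested, 21.6% passed in that direction. The 8 genes together summed to 619 and 689.9 CPM in S. cerevisiae, against 1315 and 1296 CPM in S. paradoxus. Their median log2 ratio was -1.05, and that of all genes tested was -0.00. In these bulk cultures, fewer cells that express a gene and less RNA per cell cannot be told apart.

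The catalytic genes and QCR6 had the largest differences. CYT1 mRNA was 70.2 and 77.8 CPM in S. cerevisiae, against 182 and 186 CPM in S. paradoxus. RIP1 mRNA was 37.7 and 45.7 CPM in S. cerevisiae, against 88.6 and 132 CPM in S. paradoxus. Both S. cerevisiae libraries lay below both S. paradoxus libraries for each gene, and the S. paradoxus replicates were close for CYT1 and apart for RIP1. The log2 ratio was -1.32 for CYT1 (SE 0.27, adjusted p = 0.00165) and -1.40 for RIP1 (SE 0.20, adjusted p = 0.000186), both in edgeR's test.

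COR1 had the smallest difference of the complex. Its mRNA was 131 and 169 CPM in S. cerevisiae, against 174 and 255 CPM in S. paradoxus. QCR2 mRNA was 109 and 118 CPM in S. cerevisiae, against 206 and 230.3 CPM in S. paradoxus. For COR1, the higher S. cerevisiae library came within a few CPM of the lower S. paradoxus one, whereas the QCR2 libraries were far apart. COR1 had a ratio of -0.52 on the log2 scale (SE 0.22, 95% interval -0.98 to -0.05, adjusted p = 0.0682 by edgeR) and did not pass. It did pass with DESeq2 (adjusted p = 0.0314) and with edgeR on the parental columns alone (adjusted p = 0.0484). QCR2 had -0.94 (SE 0.17, adjusted p = 0.000859 by edgeR).

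All 4 small subunits were lower in S. cerevisiae. QCR6, an acidic subunit on the intermembrane side, had 67.2 and 54.3 CPM in S. cerevisiae, against 216 and 114 CPM in S. paradoxus. QCR7, which joins cytochrome b early in assembly, had 84.2 and 95.2 CPM in S. cerevisiae, against 172 and 140.5 CPM in S. paradoxus. QCR8, its partner in that step, had 63.5 and 63.9 CPM in S. cerevisiae, against 129 and 112 CPM in S. paradoxus. QCR9, the smallest of them, had 56.1 and 65.8 CPM in S. cerevisiae, against 146 and 127 CPM in S. paradoxus. No pair of groups overlapped, and the S. paradoxus replicates of QCR6 were the most unequal of any member. The log2 ratios were -1.44 for QCR6 (SE 0.31, adjusted p = 0.00230), -0.80 for QCR7 (SE 0.20, adjusted p = 0.00559), -0.92 for QCR8 (SE 0.21, adjusted p = 0.00302) and -1.16 for QCR9 (SE 0.22, adjusted p = 0.00100) in edgeR's test. For all 8 members both S. cerevisiae libraries lay below both S. paradoxus libraries, as did those of 38.7% of all genes tested. QCR7 did not pass without S. cerevisiae RNA-seq replicate 1 (adjusted p = 0.0619) or S. paradoxus RNA-seq replicate 1 (adjusted p = 0.05001 by edgeR).

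**Figure D1:**
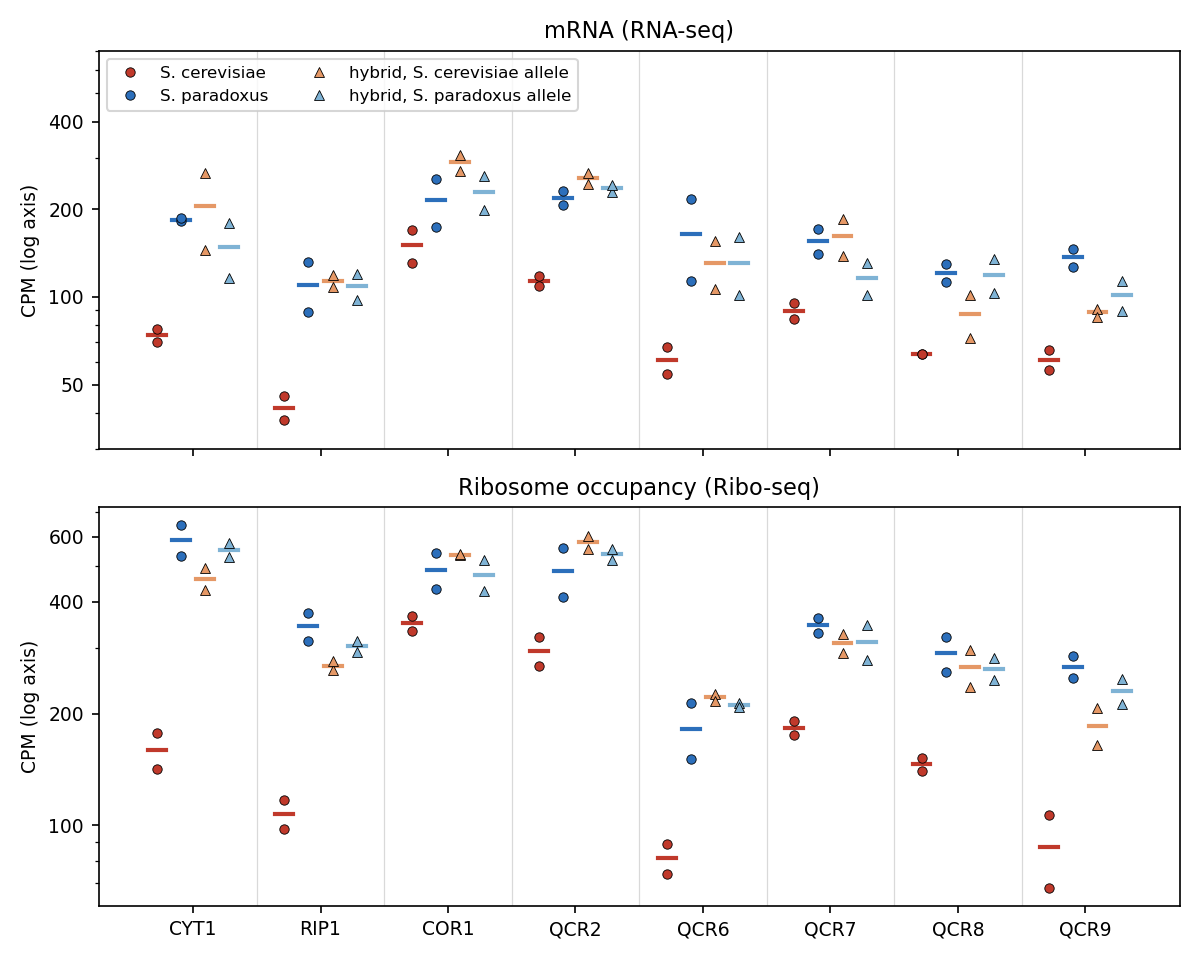
CPM (log axis) of the 8 bc1 genes in RNA-seq (top) and Ribo-seq (bottom). Points are libraries, bars are means of the 2 replicates, circles are parents and triangles are the alleles counted in the hybrid. In both assays the S. cerevisiae parent holds the lowest point of each gene.

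Ribosome occupancy showed the same members lower in S. cerevisiae. The 8 genes summed to 1311 and 1510.0 CPM in S. cerevisiae Ribo-seq, against 3170.4 and 2816 CPM in S. paradoxus. Again 7 of 8 passed lower by edgeR, where 15.0% of all genes passed in that direction and 18.0% in the other, and the median log2 ratio was -1.08, against 0.02 for all genes. The gene that did not pass was again COR1.

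The largest occupancy difference was that of CYT1, with 142 and 178 CPM in S. cerevisiae, against 644 and 533 CPM in S. paradoxus. RIP1 had 97.9 and 117 CPM in S. cerevisiae, against 374 and 314 CPM in S. paradoxus. The catalytic pair thus stood over 3-fold apart, at a log2 ratio of -1.88 for CYT1 (SE 0.27, adjusted p = 0.000190 by edgeR) and -1.68 for RIP1 (SE 0.20, adjusted p = 4.84e-05 by edgeR). The fitted ratio corresponds to 3.69-fold lower occupancy for CYT1 and 3.21-fold lower for RIP1. COR1 had 334 and 367 CPM in S. cerevisiae, against 541 and 435 CPM in S. paradoxus (ratio -0.48, SE 0.22, 95% interval -0.94 to -0.01, adjusted p = 0.106 by edgeR). QCR2 had 268 and 322 CPM in S. cerevisiae, against 559 and 411 CPM in S. paradoxus (-0.72, SE 0.17, adjusted p = 0.00590 by edgeR). In occupancy the core genes had the smallest ratios of the complex.

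Among the small subunits QCR9 stood out, with 67.9 and 107 CPM in S. cerevisiae, against 249 and 286 CPM in S. paradoxus (-1.62, SE 0.22, adjusted p = 0.000130 by edgeR). Its S. cerevisiae replicates were unequal, and both lay below the S. paradoxus ones. QCR6 had 74.0 and 88.8 CPM in S. cerevisiae, against 213 and 151 CPM in S. paradoxus (-1.16, SE 0.31, adjusted p = 0.0105 by edgeR). QCR7 had 175 and 192 CPM in S. cerevisiae, against 331 and 363 CPM in S. paradoxus (-0.92, SE 0.20, adjusted p = 0.00312 by edgeR). The QCR8 libraries held 152 and 139.8 CPM in S. cerevisiae, against 259 and 322 CPM in S. paradoxus (-0.99, SE 0.20, adjusted p = 0.00250 by edgeR). The groups did not overlap for any of the 8 members, as for 36.9% of all genes in that direction. QCR2 and QCR6 did not pass without S. cerevisiae Ribo-seq replicate 1 (adjusted p = 0.0706 and 0.0883 by edgeR) or without S. paradoxus Ribo-seq replicate 1 (0.0850 and 0.105).

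Translation efficiency is occupancy per mRNA, tested as the log2 ratio in Ribo-seq less that in RNA-seq. It did not pass for any member between the parents, and 0 members had an unadjusted p under 0.05 in edgeR. Of all genes tested 3.47% passed. The ratios ran from -0.57 for CYT1 (95% interval -1.37 to 0.23) and -0.46 for QCR9 (-1.12 to 0.20) to 0.28 for QCR6 (-0.65 to 1.198). The interval for CYT1 includes a 2-fold lower efficiency in S. cerevisiae. DESeq2 also called 0 of the 8.

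Inside the hybrid both alleles share a nucleus and a library. The allelic log2 ratios of the 8 bc1 genes lay between -0.45 and 0.47 in mRNA and within that range in occupancy. None of the 8 passed in mRNA or in occupancy by edgeR or DESeq2 in fits that did not pair the alleles of a library. In the edgeR fit 13.0% of all genes passed in mRNA and 8.74% in occupancy. In mRNA 2 of the 8 had an unadjusted p under 0.05 in that fit, and in occupancy 0 of the 8. With the library as a term, 4 of the 8 passed in mRNA and 0 in occupancy by edgeR, where 35.5% and 24.0% of all genes did. The members' summed mRNA was 1423 and 1241 CPM from the S. cerevisiae alleles, against 1246 and 1133 CPM from the S. paradoxus alleles. Their summed occupancy was 2701 and 2961 CPM from the S. cerevisiae alleles, against 2719.7 and 3049.6 CPM from the S. paradoxus alleles.

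CYT1 mRNA was 266 and 145 CPM from the S. cerevisiae allele, against 179 and 116 CPM from the S. paradoxus allele. The first hybrid RNA-seq library was higher for both alleles, and within each library the S. cerevisiae allele was the higher one. As a share of the reads of both alleles, the S. cerevisiae allele took 59.2% (exact binomial 95% interval 57.5 to 60.9) and 54.6% (52.3 to 56.8) of CYT1 mRNA in the 2 libraries. In Ribo-seq it took 44.2% (42.9 to 45.6) and 45.7% (44.5 to 46.9), on the other side of an even split in both libraries. These intervals cover counting error alone. CYT1 occupancy was 430.3 and 493 CPM from the S. cerevisiae allele, against 528 and 576 CPM from the S. paradoxus allele.

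RIP1 was nearly even in mRNA, with 108 and 119 CPM from the S. cerevisiae allele, against 98.0 and 119 CPM from the S. paradoxus allele. Its occupancy was 262 and 277 CPM from the S. cerevisiae allele, against 293 and 314 CPM from the S. paradoxus allele, so in Ribo-seq the S. paradoxus allele was higher in both libraries. COR1 mRNA was 271 and 308 CPM from the S. cerevisiae allele, against 199 and 260.0 CPM from the S. paradoxus allele. QCR2, with 244 and 266 CPM from the S. cerevisiae allele, against 229.8 and 242 CPM from the S. paradoxus allele, was the more even core gene. COR1, QCR2 and QCR7 mRNA did not overlap between the alleles and were higher from the S. cerevisiae allele, as for 19.0% of all genes, and QCR8 mRNA did not overlap and was lower, as for 20.0%. In occupancy COR1 had 536 and 538 CPM from the S. cerevisiae allele, against 429 and 518 CPM from the S. paradoxus allele. QCR2 occupancy was 556 and 604 CPM from the S. cerevisiae allele, against 519.8 and 557 CPM from the S. paradoxus allele.

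The small subunits did not move as one in allelic mRNA. QCR7 mRNA was 185 and 138 CPM from the S. cerevisiae allele, against 131 and 101 CPM from the S. paradoxus allele. QCR8 mRNA leaned to the other side, with 102 and 72.4 CPM from the S. cerevisiae allele, against 135 and 103 CPM from the S. paradoxus allele. The S. cerevisiae share was 58.0% and 56.9% for QCR7 and 42.5% and 40.4% for QCR8, so within each library the direction held. In Ribo-seq the shares were 50.4% and 48.3% for QCR7 and 48.3% and 50.8% for QCR8. QCR6 was even in both assays, with mRNA of 156 and 106 CPM from the S. cerevisiae allele, against 161 and 101 CPM from the S. paradoxus allele, and occupancy of 226 and 216 CPM from the S. cerevisiae allele, against 214 and 208 CPM from the S. paradoxus allele. QCR9 mRNA was 91.2 and 85.6 CPM from the S. cerevisiae allele, against 113 and 89.3 CPM from the S. paradoxus allele. Its occupancy was 164 and 207 CPM from the S. cerevisiae allele, against 212 and 247 CPM from the S. paradoxus allele, which did not overlap, as for 30.5% of all genes in that direction. CYT1 and RIP1 occupancy also did not overlap in that direction, and COR1 and QCR6 occupancy did not overlap in the other, as for 33.4% of all genes.

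On the log2 scale the allelic mRNA ratio ran from -0.45 for QCR8 (SE 0.20, adjusted p = 0.172 by edgeR) to 0.47 for CYT1 (SE 0.26, adjusted p = 0.272) and QCR7 (SE 0.20, adjusted p = 0.136), with a median of 0.09. The allelic occupancy ratio ran from -0.31 for QCR9 (adjusted p = 0.469 by edgeR) to 0.18 for COR1 (adjusted p = 0.714), with a median of 0.00. Both alleles were counted in the same hybrid library and so form pairs. With the library as a term in the edgeR fit, 4 of the 8 passed in mRNA: CYT1 at 0.44 (adjusted p = 0.0161), COR1 at 0.34 (0.0473) and QCR7 at 0.47 (0.00564) were higher from the S. cerevisiae allele, and QCR8 at -0.46 (0.00806) was lower. In that fit 17.3% of all genes passed higher and 18.2% lower. The fit also held a replicate term for the same-numbered parental columns, which may or may not share a library. Its estimate of the spread, and so these calls, rests partly on that term. No member passed in occupancy with the library term, where 24.0% of all genes did.

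Allelic translation efficiency passed for 0 of the 8 in edgeR and in DESeq2, with 0 at an unadjusted p under 0.05, and 1.38% of all genes passed in edgeR. The lowest ratio was that of CYT1, -0.73 (95% interval -1.53 to 0.07, adjusted p = 0.586 by edgeR), and the highest was that of QCR8, 0.46 (-0.16 to 1.08). In the fit with the library term, which also joined the parental columns, CYT1 passed at -0.70 (adjusted p = 0.0310 by edgeR), and 6.01% of all genes passed.

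The difference between parental and allelic ratio asks whether the species difference is kept when both alleles share one cell. For mRNA the parental ratio was lower than the allelic ratio for all 8 members, and 5 passed lower in edgeR's test of that difference, where 5.51% of all genes passed in that direction. CYT1 had the largest difference, with a parental ratio of -1.32 and an allelic ratio of 0.47 (difference -1.79, SE 0.37, adjusted p = 0.00910 by edgeR). RIP1 had -1.40 in the parents and 0.06 between the alleles (difference -1.46, SE 0.28, adjusted p = 0.00649 by edgeR). QCR6 had -1.44 and -0.00 (difference -1.44, SE 0.43, adjusted p = 0.0447 by edgeR), and QCR7 had -0.80 and 0.47 (difference -1.27, SE 0.28, adjusted p = 0.0116 by edgeR). Among the core genes QCR2, at -0.94 in the parents and 0.11 between the alleles, passed (difference -1.05, SE 0.24, adjusted p = 0.0152 by edgeR), and COR1 did not (difference -0.85, adjusted p = 0.0831). QCR8 (difference -0.47, 95% interval -1.09 to 0.15, adjusted p = 0.305 by edgeR) and QCR9 (difference -0.97, adjusted p = 0.0554) did not pass either. With DESeq2, COR1 (-0.91, adjusted p = 0.0292) and QCR9 (-1.02, adjusted p = 0.0174) passed lower as well. DESeq2 thus called 7 of the 8, in a fit that called 931 genes in all, against 640 by edgeR. QCR9 also passed by edgeR with RLE in place of TMM scaling (adjusted p = 0.0465). QCR8 kept the largest part of its parental mRNA ratio between the alleles.

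In occupancy 3 of the 8 passed lower, CYT1 (difference -1.63, SE 0.37, adjusted p = 0.0185), RIP1 (-1.51, SE 0.28, adjusted p = 0.00605) and QCR9 (-1.31, SE 0.31, adjusted p = 0.0204) by edgeR, where 2.38% of all genes passed in that direction. The other 5 had differences of -0.66 (COR1, adjusted p = 0.225 by edgeR) to -1.23 (QCR6, adjusted p = 0.101), with QCR8 at -1.01 (0.0518), QCR2 at -0.83 (0.0563) and QCR7 at -0.91 (0.0659). DESeq2 called 7 of the 8, all but COR1, and 4.84% of all genes in that direction. With the replicate term all 8 passed lower in mRNA and all 8 in occupancy by edgeR, in fits where 19.9% and 13.4% of all genes passed in that direction. That term also joins the same-numbered parental columns, which may or may not share a library. The count for mRNA was 2 without the first S. cerevisiae RNA-seq library and 3 without the second, and calls over all genes were 308 and 198 in the same fits, against 640 with all libraries. QCR6 did not pass in mRNA in 9 of the 12 fits that each left out a library (adjusted p = 0.0533 to 0.186 by edgeR), those without any one of the 6 Ribo-seq libraries included. For occupancy it was 0 without either hybrid Ribo-seq library, 1 without the first S. cerevisiae Ribo-seq library, 2 without the first S. paradoxus one and 7 without either hybrid RNA-seq library. Calls over all genes moved in the same direction, to 93 and 89, 192, 174, and 1069 and 1048 in these fits, against 360 with all libraries. The direction was lower for all 8 members under each of these. These differences, the parental ratios and the allelic ratios share their libraries.

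**Figure D2:**
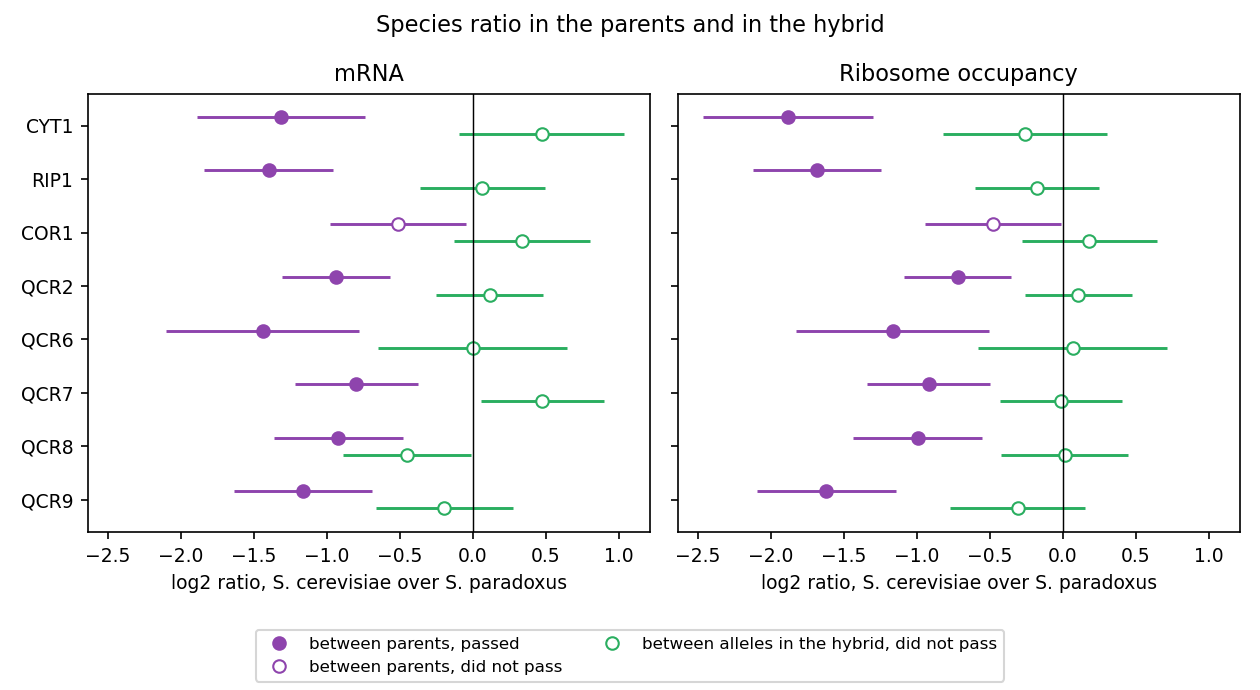
Log2 ratio of S. cerevisiae over S. paradoxus for the 8 bc1 genes in mRNA (left) and ribosome occupancy (right), with 95% intervals from the edgeR fit. Purple is the ratio between the parents and green the ratio between the alleles in the hybrid, and filled points passed at an adjusted p of 0.05. The parental ratios all lie below 0, and the allelic ratios lie between -0.45 and 0.47.

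With both alleles summed, the hybrid held more bc1 mRNA than S. cerevisiae and was not called different from S. paradoxus for any member. Scaled over the 12 libraries, the 8 members summed to 1336 and 1178 CPM in hybrid RNA-seq, against 629 and 701 CPM in S. cerevisiae and 1334 and 1320.2 CPM in S. paradoxus. In Ribo-seq they summed to 2747 and 3039 CPM in the hybrid, against 1329 and 1536 CPM in S. cerevisiae and 3232 and 2876 CPM in S. paradoxus. The hybrid sums lay above both S. cerevisiae libraries in each assay. Both comparisons use the same hybrid libraries and are given side by side.

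Over S. cerevisiae, 7 of 8 members were higher in hybrid mRNA by edgeR, where 14.2% of all 5159 genes tested were higher, and the members' median log2 ratio was 0.92. CYT1 was at 223 and 129 CPM in the hybrid, against 71.3 to 79.1 CPM in S. cerevisiae (log2 ratio 1.23, SE 0.23, adjusted p = 0.00379 by edgeR). RIP1 was at 103 and 118 CPM in the hybrid, against 38.3 to 46.5 CPM in S. cerevisiae (log2 ratio 1.39, SE 0.21, adjusted p = 0.000916 by edgeR). The core genes QCR2 (1.08, SE 0.18, adjusted p = 0.00169 by edgeR) and COR1 (0.76, SE 0.21, adjusted p = 0.0215) were higher. Of the small subunits QCR6 (1.08, adjusted p = 0.0193 by edgeR), QCR8 (0.67, adjusted p = 0.0209) and QCR7 (0.60, adjusted p = 0.0312) were higher, and QCR9 (0.61, adjusted p = 0.0520) did not pass. QCR9 did pass with DESeq2 (0.64, adjusted p = 0.0235) and by edgeR with RLE in place of TMM scaling (0.64, adjusted p = 0.0446). All 8 members passed higher in each of these fits, which called 1405 and 1299 genes in either direction. All 8 hybrid pairs lay above both S. cerevisiae libraries, as did those of 28.4% of all genes. The count was 3 without either S. cerevisiae RNA-seq library, where CYT1, RIP1 and QCR2 still passed, and 4 without hybrid RNA-seq replicate 1, where COR1 passed as well. Over all genes the calls in either direction were 370 and 332 without an S. cerevisiae RNA-seq library and 2278 without that hybrid library, against 1310 with all libraries.

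Over S. cerevisiae in occupancy, 7 of 8 were higher, where 5.74% of all genes were higher by edgeR, with a median of 1.09. CYT1 was 3.17-fold higher (log2 1.66, SE 0.23, adjusted p = 0.000714 by edgeR), with 486 and 541 CPM in the hybrid, against 144 to 181 CPM in S. cerevisiae. RIP1 had a log2 ratio of 1.41 (adjusted p = 0.000908 by edgeR), QCR6 of 1.41 (0.00875), QCR9 of 1.25 (0.00272), QCR2 of 0.92 (0.00552), QCR8 of 0.86 (0.0102) and QCR7 of 0.76 (0.0185). COR1, at 0.52, did not pass (adjusted p = 0.128 by edgeR). Every hybrid pair lay above both S. cerevisiae libraries, as for 31.7% of all genes. QCR7 and QCR8 did not pass without S. cerevisiae Ribo-seq replicate 1 or 2, or without hybrid Ribo-seq replicate 2. QCR6 did not pass without S. cerevisiae Ribo-seq replicate 1 or without hybrid Ribo-seq replicate 1. Without S. cerevisiae Ribo-seq replicate 1 the count was 3, and CYT1, RIP1 and QCR9 still passed, while calls over all genes were 239, against 656 with all libraries.

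Over S. paradoxus 0 of the 8 passed in mRNA or in occupancy by edgeR, where 25.7% and 7.62% of all genes passed in either direction, and the unadjusted p was under 0.05 for 1 member in mRNA and 0 in occupancy. The mRNA ratios ran from -0.55 for QCR9 (95% interval -1.01 to -0.09, adjusted p = 0.0721 by edgeR) to 0.24 for COR1 (-0.21 to 0.70). QCR9 passed as lower with DESeq2 (-0.57, adjusted p = 0.0458). Without hybrid RNA-seq replicate 1, CYT1 (-0.54, adjusted p = 0.0262), QCR8 (-0.49, 0.0384) and QCR9 (-0.68, 0.0327) passed lower by edgeR, in a fit that called 2648 genes in all, against 1325 with all libraries. Without S. cerevisiae Ribo-seq replicate 1 or 2 QCR9 passed alone (0.0487 and 0.0483 by edgeR). The occupancy ratios ran from -0.38 for QCR9 (-0.83 to 0.08) to 0.23 for QCR6 (-0.39 to 0.86).

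**Figure D3:**
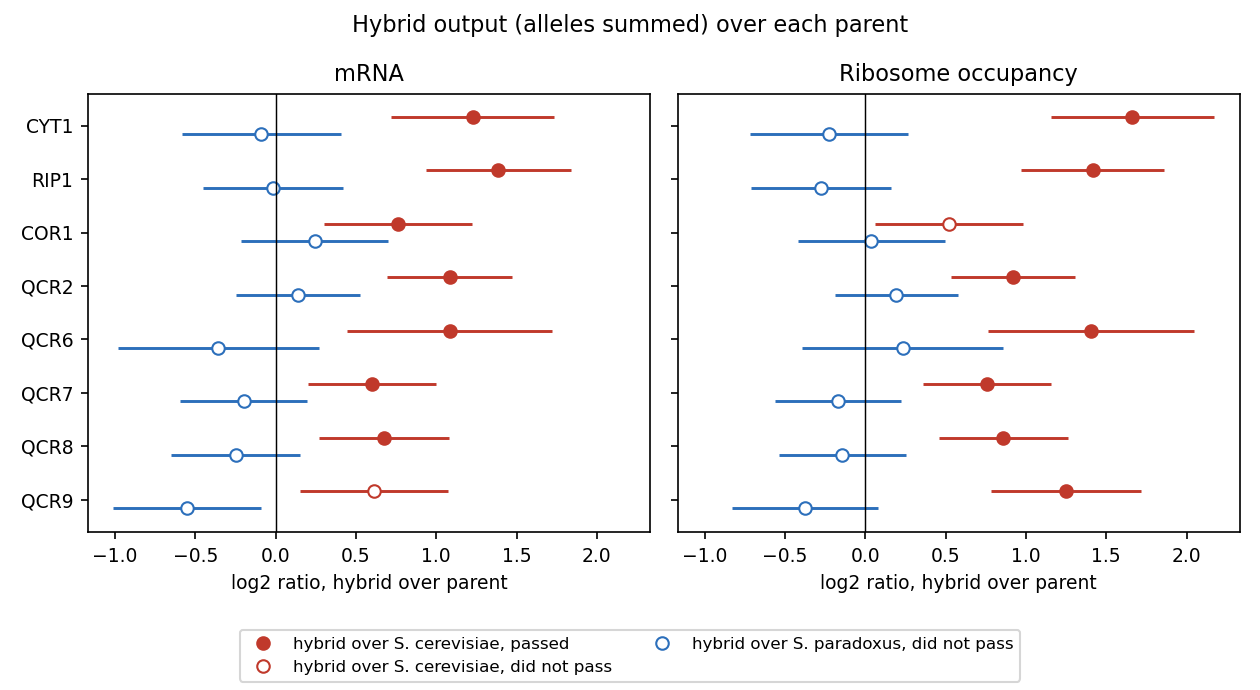
Log2 ratio of the hybrid, with both alleles summed, over S. cerevisiae (red) and over S. paradoxus (blue), with 95% intervals from the edgeR fit, in mRNA (left) and ribosome occupancy (right). Filled points passed at an adjusted p of 0.05. Ratios over S. cerevisiae lie between 0.52 and 1.66, and those over S. paradoxus between -0.55 and 0.24.

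Subunits of a complex can be set beside each other only per length, so CPM was divided by the coding length in kilobases (CPM per kb). On that scale all 8 members lay above the median of all genes in every group. The members' median level in mRNA was 123 CPM per kb in S. cerevisiae, 263 for the S. cerevisiae alleles and 254 for the S. paradoxus alleles of the hybrid, and 285 in S. paradoxus. The median over all genes was 51.1 to 54.8 CPM per kb in these groups. The highest mean level was that of QCR9 in each of the 4 mRNA groups, with 303 ± 34.4 CPM per kb in S. cerevisiae and 659.7 ± 66.2 in S. paradoxus (SD, n = 2). In the hybrid its libraries overlapped those of the next member. Among the S. cerevisiae alleles QCR9 had 440 ± 19.7 CPM per kb and QCR7 420 ± 85.7 (SD, n = 2). Among the S. paradoxus alleles QCR9 had 489 ± 81.8 CPM per kb and QCR8 418 ± 78.3 (SD, n = 2). The lowest in S. cerevisiae was RIP1, at 64.3 ± 8.75 CPM per kb, and in S. paradoxus COR1, at 156 ± 41.5 (SD, n = 2). The highest member stood 2.51-fold above the lowest among the S. cerevisiae alleles and 3.08-fold among the S. paradoxus alleles of the hybrid, against 4.71-fold in S. cerevisiae and 4.22-fold in S. paradoxus. These spreads were not tested against each other. From single libraries the ratio was 3.45 and 3.78 among the S. paradoxus alleles of the hybrid, against 3.30 and 5.57 in S. paradoxus, so their order did not hold.

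The order of the members by occupancy per kb differed between the parents, and CYT1, RIP1 and COR1 moved furthest in it. In S. cerevisiae the order from the highest was QCR8, QCR7, QCR9, QCR2, COR1, QCR6, CYT1 and RIP1, so the catalytic pair came last. In S. paradoxus it was QCR9, QCR8, QCR7, CYT1, RIP1, QCR2, QCR6 and COR1. CYT1 was at 172 ± 27.0 CPM per kb in S. cerevisiae and 633 ± 83.9 CPM per kb in S. paradoxus (SD, n = 2). RIP1 was at 166 ± 20.3 CPM per kb in S. cerevisiae, against 531 ± 65.7 CPM per kb in S. paradoxus (SD, n = 2). COR1 was at 255 ± 17.3 CPM per kb in S. cerevisiae and 355 ± 54.5 in S. paradoxus (SD, n = 2). In S. cerevisiae QCR6, CYT1 and RIP1 lay within their spread of each other, as did QCR2 and COR1, and QCR8, QCR7 and QCR9. In S. paradoxus the libraries of QCR7, QCR8 and QCR9 all lay above those of the other 5, whereas QCR2, QCR6 and COR1 overlapped. The ratio of highest to lowest was 2.39 among the S. cerevisiae alleles and 3.22 among the S. paradoxus alleles of the hybrid, against 3.09 in S. cerevisiae and 3.64 in S. paradoxus. Counts over short genes such as QCR8 and QCR9 hold a larger share of reads near the start and end of the coding sequence. The part of these ends in the order was not tested.

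**Figure D4:**
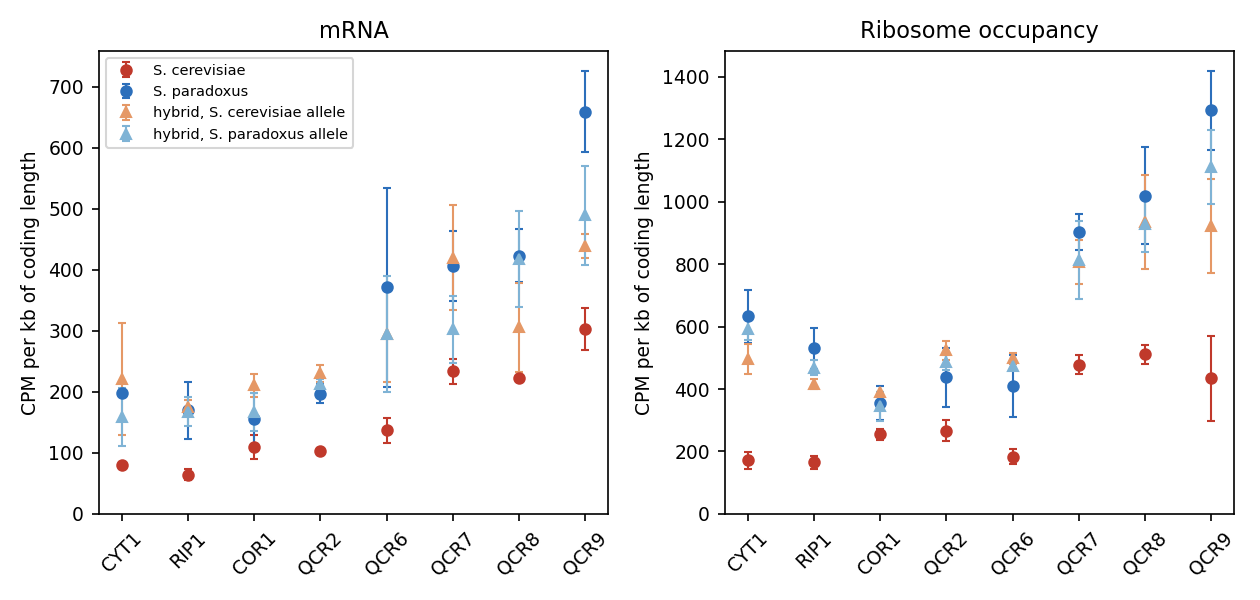
Level of each bc1 gene in CPM per kb of coding length (linear axis from 0) in RNA-seq (left) and Ribo-seq (right). Points are means of 2 libraries and bars are SD, with circles for parents and triangles for hybrid alleles. QCR7, QCR8 and QCR9 have the highest occupancy per kb in all 4 groups.

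Within a group, translation efficiency is the Ribo-seq CPM over the RNA-seq CPM, a value in which gene length cancels. The bc1 mRNAs sat in the upper part of all genes. In S. cerevisiae the log2 efficiency was 1.11 for CYT1 and 1.36 for RIP1, 1.22 for COR1 and 1.37 for QCR2, and these 4 stood at the 91.2 to 94.6 percentile of all genes. QCR7 (1.03) and QCR8 (1.196) were at the 89.4 and 92.6 percentile. The exceptions were QCR6, at 0.42 and the 68.3 percentile, and QCR9, at 0.52 and the 72.6 percentile. In S. paradoxus CYT1 reached 1.68 (98.9 percentile) and QCR9 0.97 (93.6 percentile), while QCR6 stayed lowest, at 0.14 (60.1 percentile). QCR6 was also lowest of the members in the hybrid, at 0.76 for the S. cerevisiae allele and 0.69 for the S. paradoxus allele. Between the 2 libraries of each assay the QCR6 efficiency in S. paradoxus spanned -0.52 to 0.91, so its place there rests on unequal replicates. The CYT1 efficiency was lower in S. cerevisiae than in S. paradoxus (1.11 and 1.68) and lower for the S. cerevisiae than for the S. paradoxus allele of the hybrid (1.17 and 1.90), differences that passed only when the library or the replicate number entered the fit.

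**Figure D5:**
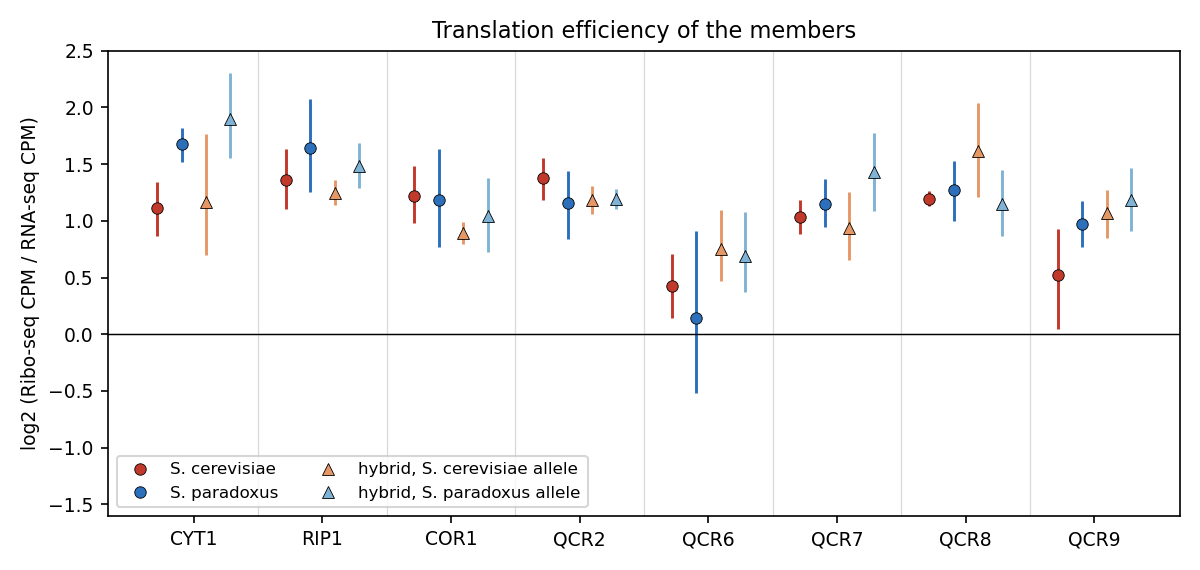
Translation efficiency of the 8 bc1 genes, as log2 of Ribo-seq CPM over RNA-seq CPM, in the parents (circles) and for the hybrid alleles (triangles). Points use the means of 2 libraries, and lines span the lowest and highest value over the pairings of single libraries. QCR6 is lowest in each group, and CYT1 is higher in S. paradoxus and its allele than in S. cerevisiae and its allele.

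Across the 16 columns the 8 members followed each other to different degrees. The Pearson correlation of a member's log2 CPM with the mean of the other 7 was 0.98 for CYT1 and 0.97 for RIP1, and lowest for COR1 (0.88) and QCR6 (0.80). Outside the complex the genes whose log2 CPM was most like the members' mean profile were COX4 (0.98), which encodes a cytochrome oxidase subunit, MRA1 (0.98), COX5A (0.98), another oxidase subunit, RPM2 (0.98), the protein of mitochondrial RNase P, and RPL26A (0.97), a ribosomal protein gene. Counts of RPL26A are uncertain beside its near-identical duplicate RPL26B. These correlations describe 16 columns that fall into 2 assays and 12 libraries, with the alleles of the hybrid sharing libraries. The mean profile, with each gene centred to its own mean, was higher in Ribo-seq than in RNA-seq for each strain and allele. In S. cerevisiae it was -0.39 and -0.16 in Ribo-seq, against -1.36 and -1.24 in RNA-seq. In S. paradoxus it was 0.97 and 0.83, against -0.23 and -0.27. The part of this step between assays in the correlations was not tested.

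Other genes of the respiratory chain were counted in the same way, beside the 21.9% of all genes that were higher and the 21.6% that were lower in S. cerevisiae mRNA. Of 13 listed genes for cytochrome c and cytochrome oxidase, 11 were tested, and in parental mRNA 8 were lower and 1 higher in S. cerevisiae, with a median of -0.83. In occupancy 8 were lower and 1 higher, with a median of -1.01, beside 15.0% and 18.0% of all genes. The difference between parental and allelic mRNA ratio passed lower for 5 of the 11, where 5.51% of all genes did, and 7 of the 11 were higher in the hybrid than in S. cerevisiae, where 14.2% of all genes were. CYC1, the main gene for cytochrome c, the electron acceptor of the complex, had 48.5 ± 5.84 CPM in S. cerevisiae, against 296 ± 76.5 CPM in S. paradoxus (SD, n = 2, log2 ratio -2.61, adjusted p = 2.06e-06 by edgeR). In the hybrid its alleles had 426 ± 69.6 CPM (S. cerevisiae) and 344 ± 8.55 CPM (S. paradoxus), and its parental minus allelic difference was -2.92 (adjusted p = 5.67e-05 by edgeR). The higher gene was COX26, a small oxidase-associated subunit, with 11.4 and 23.6 CPM in S. cerevisiae, against 4.95 and 5.24 CPM in S. paradoxus (1.77, adjusted p = 0.0316 by edgeR). Its annotated coding sequence has 201 bases (S. cerevisiae) and 270 bases (S. paradoxus), and its S. cerevisiae replicates were unequal.

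Of the 8 listed genes that feed electrons to ubiquinone, 3 were higher and 1 lower in S. cerevisiae mRNA, with a median of 0.31, counts near the shares of all genes. The lower gene was NDE1, the external NADH dehydrogenase, at 189 ± 15.6 CPM for S. cerevisiae, against 604 ± 49.4 CPM for S. paradoxus (SD, n = 2, log2 ratio -1.68, adjusted p = 7.79e-06 by edgeR). Its alleles had 569 ± 6.93 CPM (S. cerevisiae) and 555 ± 23.9 CPM (S. paradoxus) in the hybrid, a parental minus allelic difference of -1.72 (adjusted p = 0.000515 by edgeR). The opposite direction was that of GUT2, the mitochondrial glycerol-3-phosphate dehydrogenase, at 26.8 ± 3.24 CPM for S. cerevisiae, against 4.64 ± 2.60 CPM for S. paradoxus (2.54, adjusted p = 0.000788 by edgeR). GUT2 had a ratio of 2.34 between the alleles (adjusted p = 0.00345 by edgeR), with unequal hybrid replicates of 25.8 and 63.8 CPM for the S. cerevisiae allele. Of 11 ubiquinone synthesis genes 10 were tested, and 4 were higher and 0 lower in S. cerevisiae mRNA, among them COQ11 (1.22, adjusted p = 0.00438) and the methyltransferase gene COQ5 (0.99, adjusted p = 0.000202 by edgeR). COQ5 averaged 200.2 ± 3.33 CPM for S. cerevisiae, against 101 ± 1.75 CPM for S. paradoxus, and COQ11 39.0 ± 3.25 CPM for S. cerevisiae, against 16.7 ± 2.22 CPM for S. paradoxus (SD, n = 2).

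Of the 12 genes tested that assemble the complex or express cytochrome b, 6 were higher and 0 lower in S. cerevisiae mRNA, with a median of 0.48, while in occupancy 0 were higher and 1 lower, with a median of 0.01. Of all genes, 18.0% were higher and 15.0% lower in occupancy. The 6 that did not pass in mRNA had ratios of -0.53 (MZM1) to 0.37 (CBT1), 5 of them below 0. The largest were CBP4, an assembly factor, at 12.2 ± 2.83 CPM for S. cerevisiae, against 5.32 ± 3.24 CPM for S. paradoxus (1.199, adjusted p = 0.0138 by edgeR), and FMP25, also known as BCA1, which acts before the Rieske protein is added, at 95.3 ± 3.54 CPM for S. cerevisiae, against 48.0 ± 15.5 CPM for S. paradoxus (0.99, adjusted p = 0.00130 by edgeR). The annotated coding sequence of CBP4 has 513 bases (S. cerevisiae) and 444 bases (S. paradoxus). Translation efficiency was not called for any of the 12 between the parents or the alleles, where 3.47% and 1.38% of all genes passed. Presequence proteases, which trim imported subunits such as those of this complex, had 3 higher and 0 lower of 7 in mRNA and a median of 0.70, and in occupancy 2 higher and 0 lower with a median of -0.19. They included IMP2 (35.5 ± 2.96 CPM for S. cerevisiae, against 7.60 ± 2.35 CPM for S. paradoxus, 2.23, adjusted p = 3.31e-05 by edgeR) and IMP1 (0.99, adjusted p = 0.00366), whose counts are uncertain because a gene on the other strand overlaps it. Of 4 genes for supercomplex factors and cardiolipin, CRD1, the cardiolipin synthase, was higher (0.70, adjusted p = 0.0440 by edgeR) and RCF2 lower (-0.41, adjusted p = 0.0456) in S. cerevisiae mRNA. These counts are near the shares of all genes.

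Of 6 listed regulators 5 were tested. In parental mRNA 2 were higher and 1 lower in S. cerevisiae, with a median of 0.22, beside 21.9% and 21.6% of all genes. In occupancy 1 was higher and 1 lower, with a median of 0.05, beside 18.0% and 15.0% of all genes. The activators differed in opposite directions in mRNA: HAP4 was lower, and HAP1 and a gene for another Hap2/3/4/5 subunit were higher. HAP4, the limiting subunit of the Hap2/3/4/5 activator, had 30.1 and 32.2 CPM of mRNA in S. cerevisiae, against 105 and 95.2 CPM in S. paradoxus (-1.68, SE 0.32, adjusted p = 0.00111 by edgeR). In the hybrid its S. cerevisiae allele had 71.5 and 104 CPM, against 44.2 and 61.2 CPM from the S. paradoxus allele, and the parental minus allelic difference was -2.42 (SE 0.45, adjusted p = 0.00523 by edgeR). HAP1, the heme-responsive activator, had 315 and 290.5 CPM in S. cerevisiae, against 102 and 103 CPM in S. paradoxus (1.56, SE 0.17, adjusted p = 2.30e-05 by edgeR). Its alleles had 191 and 235 CPM (S. cerevisiae), against 141 and 191 CPM (S. paradoxus), with a parental minus allelic difference of 1.197 (SE 0.24, adjusted p = 0.00702 by edgeR). Thus HAP4 was lower in S. cerevisiae, as the bc1 genes were, whereas HAP1 and the other subunit gene that passed were higher. The annotated coding sequence of HAP1 has 4509 bases (S. cerevisiae) and 4440 bases (S. paradoxus). Whether any of these regulators bears on the bc1 genes was not tested.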

How the data were processed

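The authors deposited whole-number read counts per gene for 16 columns: the parents' RNA-seq and Ribo-seq libraries and each species' allele in the hybrid libraries, 2 replicates a group. Per the submitters' processing notes, the tools were Bowtie 0.12.8, bedtools 2.17.0, CASAVA 1.8 and cutadapt 1.2.1, and the build sacCer3. The S. paradoxus assembly and whether counting used strand were not stated in the labels used here. Per the labels, the libraries were single-end and kept the sense strand.

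From these counts, edgeR 4.0.16 in R 4.3.3 scaled columns with TMM, kept genes by filterByExpr (minimum count 10, 5158 of 5226) and ran its quasi-likelihood test on 8 groups together, with Benjamini-Hochberg adjustment at 0.05 over all genes. A second fit used the 12 libraries, hybrid alleles summed. Standard errors are the log2 ratio over the root of F. The scripts were tested on simulated data. Symbols of 5183 gene IDs came from RefSeq R64, and coding lengths from the deposited coordinates.

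Alleles counted in 1 hybrid library form a pair, and the correlation of their deviations from the group means was 0.801 for RNA-seq and 0.346 for Ribo-seq, so a term for the library was also fitted. The same fit held a term for the replicate number of the parental columns in each assay. In the fit of 12 libraries the term was the replicate number within an assay, over hybrid and parents alike. Other alternatives were RLE size factors, DESeq2 1.42.0, no filter, only the strains compared, and leaving out each library.

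Members and lists were chosen with earlier results of these data known. Of each list, the text names the 2 genes with the largest parental mRNA ratio past the threshold, and COX4, COX5A, MRA1, RPM2 and RPL26A as the 5 genes most like the members. COQ10, COX5B, COX9, ROX1 and QCR10 were not analysed here. No sequence is shown. Depth per column was 6116133 to 8910405 counts, and 2 libraries a group set the precision.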

Additional observations from a re-analysis of the deposited data

Results flagged for a closer look

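For 5 bc1 genes the mRNA ratio between the parents differed from that between the alleles of the hybrid in a test of the difference itself, by edgeR with adjustment over all genes. The differences, parental minus allelic on the log2 scale, were -1.79 for CYT1, -1.46 for RIP1, -1.05 for QCR2, -1.44 for QCR6 and -1.27 for QCR7. In ribosome occupancy the same test passed for CYT1 (-1.63), RIP1 (-1.51) and QCR9 (-1.31). In each of these 8 cases the parental ratio was the lower one, and each of them lost its call without at least 1 library, other than CYT1 and RIP1 in mRNA.

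Among the named genes outside the complex, the difference was negative for CYC1 in mRNA (-2.92) and occupancy (-2.41), for NDE1 in mRNA (-1.72) and occupancy (-1.30), and for HAP4 in mRNA (-2.42). It was positive for FMP25 in mRNA (0.90), for IMP2 in occupancy (2.18) and for HAP1 in mRNA (1.197) and occupancy (1.70). IMP2 occupancy averaged 22.2 ± 1.91 CPM in S. cerevisiae, against 4.15 ± 0.15 CPM in S. paradoxus, and 13.4 ± 0.79 CPM from the S. cerevisiae allele, against 11.4 ± 0.54 CPM from the S. paradoxus allele (SD, n = 2). Groups of 2 libraries are too small for a check of single libraries against the rest of their group.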

How the results depend on the processing

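No member's called direction turned round under any alternative. The replicate term raised the members called from 0 to 1 for parental and 1 for allelic translation efficiency, 0 to 4 for allelic mRNA, 5 to 8 and 3 to 8 for the parental minus allelic difference in mRNA and occupancy, and 0 to 1 for hybrid over S. paradoxus mRNA. For the hybrid totals the term joined same-numbered libraries of hybrid and parents, which the labels do not show to be paired. DESeq2 gave 7 for the parental minus allelic difference in mRNA and 7 in occupancy, and 1 for hybrid over S. paradoxus mRNA. The parental replicate numbers are not shown to pair, although same-numbered columns had near-equal totals: the correlation of same-numbered deviations was 0.209 for RNA-seq and 0.0951 for Ribo-seq. With the replicate term CYT1 passed in parental translation efficiency (-0.57, adjusted p = 0.0415 by edgeR), where 20.4% of all genes passed. COR1 passed lower in parental mRNA (adjusted p = 0.00271 by edgeR) and occupancy (0.00507). There 63.9% and 53.3% of all genes passed in either direction, and 32.4% and 25.6% passed lower.

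Leaving out each library in turn gave 6 to 8 members for parental mRNA, 5 to 8 for parental occupancy, 2 to 6 and 0 to 7 for the parental minus allelic difference in mRNA and occupancy, 3 to 8 and 3 to 7 for hybrid over S. cerevisiae in mRNA and occupancy, 0 to 3 for hybrid over S. paradoxus mRNA and 0 for each of the other 5 comparisons. Where an arm kept 1 library, that library was assumed to vary like the other groups.

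Over all genes, leaving out each library in turn gave 1352 to 3091 calls for parental mRNA, against 2245 with all libraries, 1027 to 2491 for parental occupancy (1702) and 56 to 722 for parental translation efficiency (179). Between alleles it gave 473 to 837 for mRNA (668), 110 to 984 for occupancy (451) and 11 to 147 for translation efficiency (71). The parental minus allelic difference had 198 to 1210 in mRNA (640) and 89 to 1069 in occupancy (360). Hybrid over S. cerevisiae had 332 to 2278 in mRNA (1310) and 239 to 1256 in occupancy (656), and hybrid over S. paradoxus 653 to 2648 (1325) and 112 to 923 (393).

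Under the alternatives other than leaving out a single library, calls over all genes moved by more than 1.5 times as follows. Parental occupancy went to 2747 with the replicate term, against 1702. Parental translation efficiency had 379 with DESeq2, 572 with the parental columns alone and 1054 with the replicate term, against 179. Allelic mRNA had 200 with the hybrid alone and 1833 with the library term, against 668, and allelic occupancy 181 and 1236, against 451. Allelic translation efficiency had 128 with DESeq2, 10 with the hybrid alone and 310 with the term, against 71. The parental minus allelic difference had 2021 with the term, against 640, in mRNA, and 609 with DESeq2 and 1403 with the term, against 360, in occupancy. Hybrid over S. paradoxus had 685 with those strains alone, against 1325, in mRNA, and 211 alone and 602 with the term, against 393, in occupancy. The cause was not tested.

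The ratio of highest to lowest member per kb was 3.32 with the S. cerevisiae length, against 3.22, for S. paradoxus alleles in Ribo-seq. From single libraries, an alternative chosen after seeing the data, it was 2.74 to 2.88 (S. cerevisiae alleles), 3.45 to 3.78 (S. paradoxus alleles), 4.64 to 4.80 (S. cerevisiae) and 3.30 to 5.57 (S. paradoxus) in RNA-seq. In Ribo-seq it was 2.13 to 2.66 (S. cerevisiae alleles), 3.17 to 3.29 (S. paradoxus alleles), 2.95 to 3.53 (S. cerevisiae) and 3.06 to 4.37 (S. paradoxus).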
